A study of Mus musculus with 45 samples.

Results

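The comparison asked where Capicua (CIC), a DNA-binding transcriptional repressor, was detected in the cerebellum of mice with a polyglutamine-expanded ATXN1 beside wild-type mice. Its members are 1660 CIC peaks of the 154Q mice and 4364 CIC peaks of the WT mice on chromosomes 1 to 19, together 6024 of 7015 peaks in the 3 lists of the series as deposited, the remainder being 131 repeat-rich WT peaks and 860 peaks of an ATXN1 contact mutant that are not described here. Peaks were paired by position. A 154Q peak that overlapped a WT peak by at least 1 bp is called kept, a 154Q peak with no WT overlap gained, and a WT peak with no 154Q overlap lost. These words describe presence in a peak list and not a measured change in occupancy.

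Both genotypes were profiled by CUT&RUN, which uses a nuclease tethered to an antibody to cut out the DNA under a bound protein. The libraries came from cerebellar nuclei of C57BL/6 mice at 10 weeks of age, incubated with an in-house rabbit polyclonal antibody against CIC. WT mice (n = 4) carried wild-type alleles, and 154Q mice (Atxn1 154Q/2Q, n = 4) carried 1 knock-in Atxn1 allele with an expanded CAG tract opposite an allele of normal length. CIC KO mice (Engrailed1-Cre;Cic fl/fl, n = 4), in which Cic is deleted in cells of the Engrailed1 lineage, were the negative control for both. The animals of a genotype were merged, and peaks were called on the merged libraries with those of CIC KO as background, which leaves 1 observation per genotype. No spread between animals can be given and no difference between the genotypes was tested. The intervals below are 95% Wilson intervals for a share and Newcombe intervals for a difference of shares. They cover counting error over peaks alone. A difference in binding cannot be told apart here from a difference in depth or yield between the merged libraries, whose fragment totals were not used here. The same CIC KO libraries enter both lists.

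CIC is an HMG-box protein that represses genes in resting cells and is displaced or degraded when receptor tyrosine kinases activate RAS and ERK. Its best known targets are therefore induced by growth factor signalling, among them the ETS factors Etv1, Etv4 and Etv5 and the feedback inhibitors of the Sprouty, Spred and Dusp families. It recognises short octamers related to TGAATGAA. ATXN1, the protein whose polyglutamine expansion causes spinocerebellar ataxia type 1, binds CIC in a stable complex in the cerebellum.

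The sequences beneath peaks of each class are shown first because the share of peaks with a CIC octamer differed between the classes, as given below. The octamers searched on both strands were TGAATGAA, TGAATGGA, TCAATGAA and TCAATGGA. Those of the first 3 sets were chosen for having an octamer, which most peaks of every class lack. Capitals mark the octamer nearest the summit, and each sequence is read so that this octamer runs in the orientation listed. Further searched octamers stay in lower case, in whole or in part, in the windows of Mrc2 and Cntnap2 (2 octamers each) and of Elfn1 (3). Sequences and coordinates are those of the RefSeq copy of GRCm38. Windows that touch an untranslated region were shortened to 30 bases. The first set lies beneath peaks that were strong in both lists, at the promoters of Etv5, Etv4 and Etv1 and at an intergenic site whose nearest protein-coding start is that of Mrc2.
Etv5 promoter (kept), chr16:22439895-22439954, minus strand: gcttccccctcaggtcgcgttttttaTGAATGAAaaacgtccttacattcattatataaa
Etv4 promoter (kept), chr11:101785356-101785385, plus strand: attgacttttgTGAATGAAaccccagggcc
Mrc2 distal site (kept), chr11:105353319-105353378, plus strand: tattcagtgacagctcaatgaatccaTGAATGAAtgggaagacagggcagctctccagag
Etv1 promoter (kept), chr12:38780768-38780827, minus strand: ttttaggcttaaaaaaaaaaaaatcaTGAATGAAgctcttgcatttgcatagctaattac
The second set lies beneath kept peaks that stood far higher in the 154Q order than in the WT order.
Shc4 promoter (kept, rose), chr2:125724086-125724145, plus strand: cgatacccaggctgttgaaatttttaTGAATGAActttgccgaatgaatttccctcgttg
Elfn1 intron (kept, rose), chr5:139948679-139948738, plus strand: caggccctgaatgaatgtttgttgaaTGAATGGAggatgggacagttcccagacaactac
site nearest Rtl1 (kept, rose), chr12:109695098-109695157, plus strand: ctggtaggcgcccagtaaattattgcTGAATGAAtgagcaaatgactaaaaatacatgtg
The third set lies beneath gained peaks that had an octamer, as 35 of 645 did.
Ccnd1 upstream site (gained), chr7:144941376-144941435, minus strand: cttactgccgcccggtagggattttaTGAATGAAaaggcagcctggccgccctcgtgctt
Spred3 promoter (gained), chr7:29168639-29168668, minus strand: cttgatttttgTGAATGAAatgctccttgt
Bcl2 promoter (gained), chr1:106714375-106714434, minus strand: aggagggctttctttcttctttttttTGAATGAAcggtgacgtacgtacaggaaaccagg
site nearest Cartpt (gained), chr13:99750826-99750885, minus strand: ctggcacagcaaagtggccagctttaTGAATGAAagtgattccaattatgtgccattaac
Cntnap2 intron (gained), chr6:46399290-46399349, minus strand: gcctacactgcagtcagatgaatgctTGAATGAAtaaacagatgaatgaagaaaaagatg
site nearest Hpdl (gained), chr4:116827865-116827924, plus strand: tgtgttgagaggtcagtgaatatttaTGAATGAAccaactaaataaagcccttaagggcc
The last set is centred on the summits of high-ranked lost peaks and of a kept peak that fell, none of which had an octamer within 50 bp. Here the capital marks the summit base and the plus strand is shown.
Ptch1 intron (lost), chr13:63548750-63548809, plus strand: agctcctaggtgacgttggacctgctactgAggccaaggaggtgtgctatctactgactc
Uqcrq promoter (lost), chr11:53430994-53431053, plus strand: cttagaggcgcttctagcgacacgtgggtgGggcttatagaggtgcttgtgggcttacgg
Rab5b promoter (lost), chr10:128696431-128696490, plus strand: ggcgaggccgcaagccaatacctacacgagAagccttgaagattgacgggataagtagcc
Ung promoter (kept, fell), chr5:114131041-114131070, plus strand: ggccgccatgccgagAcatctaccaatggg

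Of the 1660 peaks of 154Q mice, 1015 were kept and 645 were gained (38.9%, interval 36.5 to 41.2). Of the 4364 peaks of WT mice, 1000 were kept and 3364 were lost (77.1%, 75.8 to 78.3). The strongest sites were mostly common to both genotypes and the weak ones mostly were not. Peaks were ranked within each list by −log10 q, the peak caller's significance against CIC KO. Among the 100 highest-ranked 154Q peaks, 89 (89%, 81.4 to 93.7) overlapped a WT peak, and among ranks 1001 to 1660 264 of 660 (40%, 36.3 to 43.8) did so. In the WT list, 93 of the first 100 peaks were kept, 167 of 300 (55.7%, 50.01 to 61.2) of ranks 301 to 600, and 95 of 1364 (6.96%, 5.73 to 8.44) of ranks 3001 to 4364. In the first 100 ranks the intervals of both lists overlapped, and at ranks 101 to 300, 301 to 600 and 601 to 1000 the fraction was lower in the longer WT list. At ranks 601 to 1000 it was 234 of 400 (58.5%, 53.6 to 63.2) in 154Q and 145 of 400 (36.2%, 31.7 to 41.1) in WT. With each list limited to the same number of highest-ranked peaks, 54.2% of 154Q peaks were gained and 55.4% of WT peaks were lost. Equal lengths make these shares nearly equal by construction, so they show the level of sharing and not its cause.

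**Figure D1:**
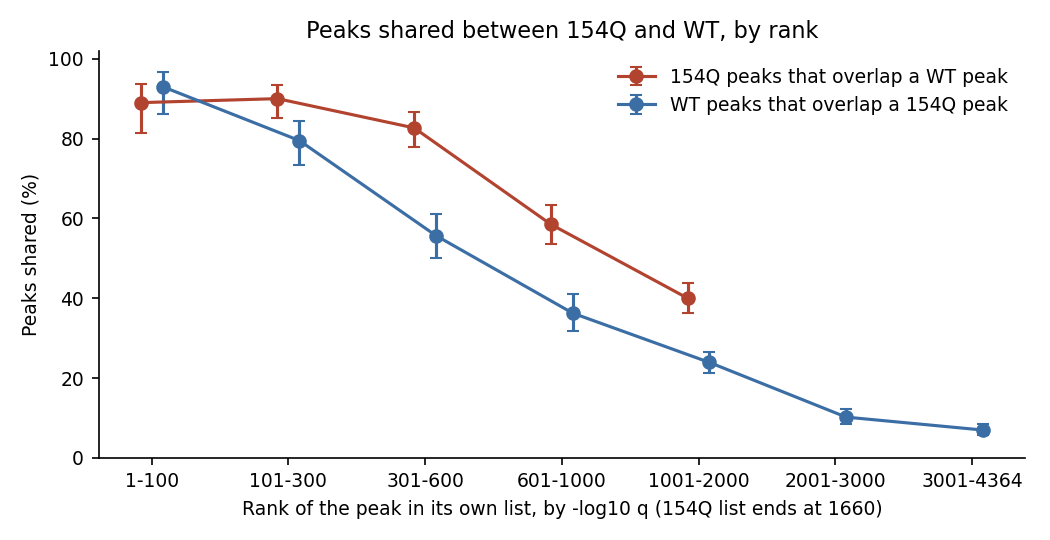
Percentage of peaks that overlap a peak of the other genotype, by rank of the peak in its own list (154Q in red, WT in blue). Bars are 95% Wilson intervals over peaks, and both curves begin near 90% in the first 100 ranks and fall, to 40% in 154Q and 6.96% in WT.

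Kept peaks had higher −log10 q than the unshared peaks of the same list, and in the WT list they were also wider. The median −log10 q was 5.38 for kept 154Q peaks and 2.32 for gained ones, and 9.87 for kept WT peaks against 3.18 for lost ones. In the WT list, which also gives boundaries and fold enrichment (fragments piled up at the summit relative to CIC KO), the median width was 331 bp for kept and 195 bp for lost peaks, and the median fold enrichment 3.72 and 2.90. Still, 28 gained peaks had a −log10 q above 10 and 14 above 20, and 294 lost peaks exceeded 10 and 42 exceeded 20. Some unshared peaks lay close to a peak of the other list. A WT peak lay within 100 bp of 63 gained peaks (9.77%) and within 500 bp of 141 (21.9%). For lost peaks, a 154Q peak lay within 100 bp of 57 (1.69%) and within 500 bp of 178 (5.29%). The 154Q list gives summits without boundaries, which makes its peaks narrow. A wide WT peak is then more readily overlapped, so the width difference between kept and lost peaks is in part set by the sharing rule. A further 7 gained peaks overlapped a repeat-rich WT peak that had been removed.

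At kept peaks the median distance between the summits of both lists was 33 bp (quartiles 12 and 97). Sharing by overlap itself places most of these 154Q summits within the WT peak, so their closeness is in part fixed by the rule. The −log10 q was higher in 154Q at 310 of 1015 kept peaks (30.5%, 27.8 to 33.4), and its median was 5.38 in 154Q and 10.1 at the overlapping WT peaks. This value grows with the depth of a library, so levels are set side by side here and ranks within a list were compared instead. Of the 10 kept peaks of highest 154Q rank, 9 had the higher −log10 q in 154Q, and of the 10 of highest WT rank 7 did, the others being those nearest Etv5, Hbp1 and Hdac4. The first count leans to high 154Q values by its choice of peaks. The site of the highest 154Q value, between genes on chromosome 11 and 60688 bp from the start of Mrc2, a collagen receptor gene, had −log10 q 446 in WT and 922 in 154Q, ranks 2 and 1. At the promoter of Spry4, a Sprouty inhibitor of RAS-ERK signalling, the values were −log10 q 303 in WT and 674 in 154Q, ranks 4 and 2. The promoter of Hsd17b12, which encodes a fatty acid elongation enzyme, had −log10 q 351 in WT and 425 in 154Q, ranks 3 and 3. These ranks moved by at most 2 places.

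Of 12 established CIC targets, 11 had a 154Q peak and 9 a WT peak, against 7.24% and 16.8% of 20780 protein-coding genes on these chromosomes. A gene was counted where a summit fell in its body or within 5 kb upstream. On that basis 9 targets were kept, Ccnd1 and Spred3 were gained, none was lost, and Spry2 had no peak in either list. Over all genes 1220 (5.87%) were kept, 285 (1.37%) gained and 2277 (11.0%) lost, and 1006 of the kept genes were kept through a shared peak. Lists of equal length changed the gained count to 618 genes and the lost count to 759. With q below 0.001 in both lists, 174 genes were gained, 1621 lost and 789 kept. Etv5, an ETS activator, had the highest −log10 q of the whole WT list. Its values were 488 in WT (rank 1) and 398 in 154Q (rank 4). The related Etv4 gave 68.0 in WT (rank 26) and 257 in 154Q (rank 9), and Etv1 72.1 in WT (rank 22) and 201 in 154Q (rank 11). These values were lower in 154Q at Etv5 and higher at both relatives.

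The inhibitors of the cascade among the kept targets had higher values in 154Q at their highest-ranked peaks. Spry2, with no peak, and Spred3, with no WT peak, could not be compared. Spred1, which restrains RAS activation, gave 173 in WT (rank 8) and 307 in 154Q (rank 7), and Spred2 37.6 in WT (rank 80) and 151 in 154Q (rank 14). Dusp4, a phosphatase that inactivates ERK in the nucleus, gave 119 in WT (rank 9) and 307 in 154Q (rank 8). At Dusp6, the cytoplasmic ERK phosphatase, the peak stood low in the WT list of 4364 and in the first 200 of the 154Q list, with 2.285 in WT (rank 3087) and 15.7 in 154Q (rank 174). Shc3, a neuronal adaptor that links receptor tyrosine kinases to RAS, gave 6.98 in WT (rank 1228) and 72.7 in 154Q (rank 32). Thus 8 of the 9 kept targets had the higher −log10 q in 154Q, with Etv5 the exception, whereas the same was true of 30.5% of all kept peaks. The targets were chosen with these results known, and the study names 4 of them, Etv4, Etv5, Spred1 and Spry4, from the same libraries, so this is a description of known sites and no independent evidence of a direction.

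Ccnd1, which encodes cyclin D1, the cyclin that carries growth factor signals into the cell cycle, was the higher ranked of the gained targets. Its peak lay 1543 bp from the nearest annotated start with −log10 q 20.02 (rank 129) and had the octamer 6 bp from the summit. Spred3, a further Spred gene, had a peak 2 bp from its start with −log10 q 9.48 (rank 296), the octamer lying 5 bp from the summit. Neither gene had a WT peak at the authors' threshold of q 0.05, which does not show that CIC was absent there in WT mice.

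Several targets had more than 1 peak, and the targets together held 21 of the 154Q peaks, of which 18 were kept and 3 gained. At 16 of the 18 the −log10 q was higher in 154Q, the others being the Etv5 promoter and a site in a Spred2 intron with 10.2 in WT (rank 771) and 6.15 in 154Q (rank 521). A second Etv5 site, 1157 bp from a start, had −log10 q 55.8 in WT (rank 39) and 253 in 154Q (rank 10). Another, 7441 bp from a start and with an octamer, had 7.67 in WT (rank 1102) and 27.4 in 154Q (rank 84). In Etv1, an intronic site 5264 bp from a start, also with an octamer, had 13.3 in WT (rank 516) and 41.5 in 154Q (rank 56), and a site 4346 bp from the Spred2 start had 2.68 in WT (rank 2804) and 22.2 in 154Q (rank 110). The sole lost peak at a target lay 913 bp from a Spry4 start (WT rank 3849, −log10 q 1.48), 827 bp from the 154Q summit. The 2 gained peaks of Spred3 had ranks 296 and 300 and their nearest WT peaks lay 11919 and 11458 bp away.

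**Figure D2:**
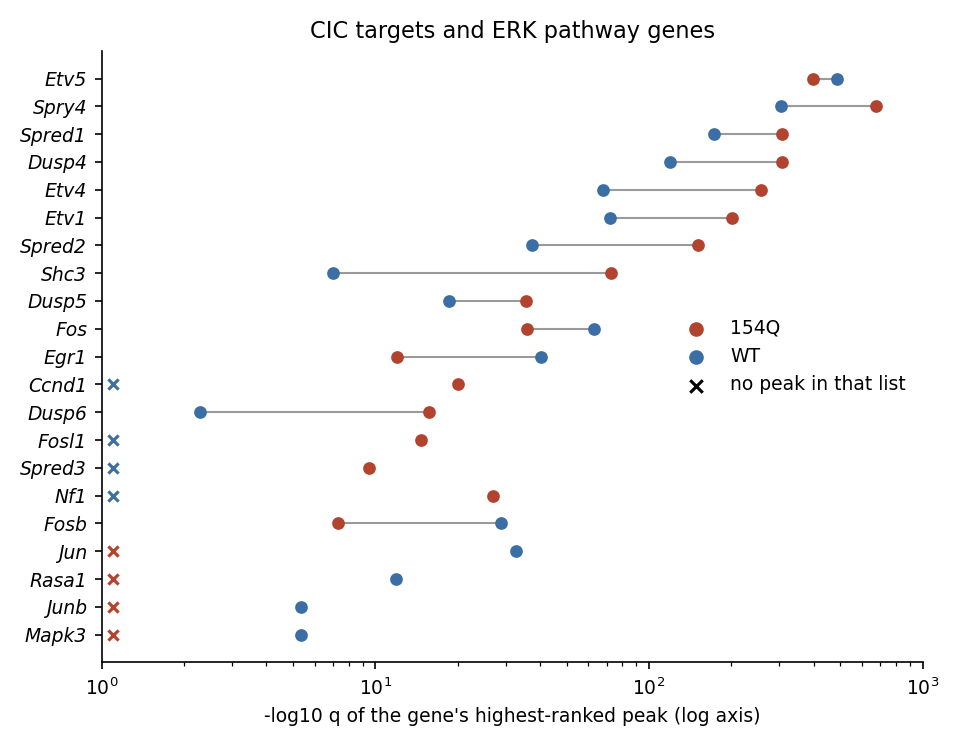
Highest −log10 q (log axis) of the peaks of each gene in 154Q (red) and WT (blue), for the 11 CIC targets with a peak and further ERK pathway genes, with a cross where a list has no peak. Most feedback inhibitors drawn lie to the right in 154Q, whereas Fos, Egr1 and Fosb lie to the right in WT and Jun, Rasa1, Junb and Mapk3 have a WT peak alone. The pathway genes drawn are a selection, without Dusp1 and Dusp7, which were lower in 154Q, and Dusp10, which was lost.

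Across 61 genes of the receptor tyrosine kinase, RAS and ERK cascade and its feedback, 16 were kept (26.2%), 4 gained (6.56%) and 12 lost (19.7%). Each share exceeded that of all genes, which were not matched for length, and a long gene has more room for a peak. Among feedback phosphatases beyond the targets, Dusp5 gave 18.6 in WT (rank 296) and 35.7 in 154Q (rank 67) and Dusp10 was lost (rank 1333, −log10 q 6.56). Dusp7 gave 4.47 in WT (rank 1928) and 1.86 in 154Q (rank 1322) and Dusp1 1.78 in WT (rank 3702) and 1.44 in 154Q (rank 1469), in both cases at peaks that did not overlap, as in Fgfr2. The gained genes were Frs2, Nf1, Spred3 and Fosl1. Nf1, the neurofibromin gene whose product turns RAS off, had a gained promoter peak (rank 85, −log10 q 26.9) whose nearest WT peak was 364952 bp away. Fosl1, which encodes the AP-1 subunit FRA1, had one at rank 188, −log10 q 14.7. Frs2, an adaptor of FGF receptors, had a weak one (rank 1440, −log10 q 1.44).

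Several immediate-early genes, which ERK induces within minutes, had a lower −log10 q in 154Q or no 154Q peak, and for comparison the value was higher in 154Q at 30.5% of all kept peaks. No list of such genes was counted, so no share can be given. Fos had 63.1 in WT (rank 32) and 35.7 in 154Q (rank 66), Egr1 40.3 in WT (rank 70) and 12.0 in 154Q (rank 236) and Fosb 28.9 in WT (rank 132) and 7.30 in 154Q (rank 424). Another Fos promoter peak had 31.5 in WT (rank 108) and 28.1 in 154Q (rank 83). Jun was lost, with a promoter peak at rank 100, −log10 q 32.6 and its nearest 154Q peak 2858140 bp away. Its relative Junb (rank 1622, −log10 q 5.37), Egr3 (rank 1714, −log10 q 5.09) and Ier2 (rank 2613, −log10 q 3.18) were lost as well. Fosl1 was gained, as given above, and at the promoter of Nr4a1, an immediate-early gene outside the list that was looked up after its value was seen, the −log10 q was 5.71 in WT (rank 1539) and 15.5 in 154Q (rank 175). Among signalling components, the lost genes included the RAS GTPase-activating gene Rasa1 (rank 609, −log10 q 11.9), Mapk3, which encodes ERK1 (rank 1651, −log10 q 5.37), and the neurotrophin receptor genes Ntrk2 (rank 2651, −log10 q 3.07) and Ntrk3 (rank 2032, −log10 q 4.23). Apart from Jun and Rasa1, the lost genes named here had WT ranks beyond 1000, where at most 23.9% of WT peaks of a rank group were kept.

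The counts of the next lists stand beside 5.87% kept, 1.37% gained and 11.0% lost over all genes. Of 18 ETS factor genes, Etv1, Etv4 and Etv5 were kept (16.7%), none was gained, and Elk3, Elf1, Elf2 and Gabpa were lost (22.2%), the strongest being Elf2 (rank 708, −log10 q 10.8). Of 19 cyclin and G1 regulator genes, Ccnd3, Ccne2 and Cdk4 were kept (15.8%), Ccnd1 was gained, and Ccne1, Cdkn1a, Cdkn1b and E2f3 were lost (21.1%). At Cdk4, the kinase partner of cyclin D, the values were 5.05 in WT (rank 1719) and 6.63 in 154Q (rank 483). The other kept genes were lower in 154Q. Ccnd3 gave 11.6 in WT (rank 632) and 5.39 in 154Q (rank 587), and Ccne2 5.98 in WT (rank 1428) and 1.42 in 154Q (rank 1572). Cdkn1b, encoding the inhibitor p27, had its WT peak at rank 998, −log10 q 8.41. A gained peak nearest Cdkn1a, encoding the inhibitor p21, was 1 of the 7 that overlapped a removed WT peak.

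Of 21 genes of the ATXN1-CIC complex and reported ATXN1 partners, 5 were kept and 5 lost (23.8% each, against 5.87% and 11.0% of all genes) and none was gained, where all genes have 1.37%. Cic itself had a promoter peak in both, 32.1 in WT (rank 103) and 62.0 in 154Q (rank 36). Sin3a, a scaffold of histone deacetylase complexes, gave 47.2 in WT (rank 52) and 13.6 in 154Q (rank 211), and Hdac3 9.64 in WT (rank 830) and 7.54 in 154Q (rank 397). Rfx1, a transcription factor studied beside CIC in this disease, was lost with a weak WT peak (rank 4050, −log10 q 1.41).

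Genes of cerebellar cell types were examined because cells of all types contributed nuclei. Of 35 Purkinje cell genes, 5 were kept (14.3%), 1 was gained and 3 were lost (8.57%), the lost share being below the 11.0% and the kept share above the 5.87% of all genes. Inpp5a, a phosphatase of inositol phosphate signalling, gave 69.2 in WT (rank 25) and 41.0 in 154Q (rank 58), and the sodium channel regulator Fgf14 32.1 in WT (rank 104) and 5.42 in 154Q (rank 583). The lost ones were Rora (rank 2336, −log10 q 3.70), Cacna1a (rank 544, −log10 q 12.9) and Grin2a (rank 1215, −log10 q 7.06), and Plcb3 was gained (rank 1031, −log10 q 2.80). Of 22 granule cell genes, 8 were kept (36.4%), none was gained and 7 were lost (31.8%), both above the shares of all genes, the lost ones including Slc17a7 (rank 1438, −log10 q 5.97) and Gabra6 (rank 1403, −log10 q 6.11). Among the kept ones, the highest-ranked peak had the higher −log10 q in 154Q at Cbln3, Fat2 and Nfib. That value was higher in WT at Gabrd, Zic1, Zic2, Zic4 and Nfia. Zic1 and Zic4 share a bidirectional start region and were counted through the same pair of peaks, which did not overlap each other. Not all kept genes held an overlapping pair, the exceptions including Plcb4 among the Purkinje cell genes and Fat2 among the granule cell genes. Of 25 glial genes, Cx3cr1 alone had peaks, and those in the lists did not overlap. The lists do not show in which cells CIC was bound, and hold no expression values against which the labelled tissue could be checked.

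A count by symbol, added after the values were seen, was made for 2 groups of housekeeping genes. Of 79 ribosomal protein genes, 9 were kept (11.4%), 1 gained (1.27%) and 20 lost (25.3%). Of 91 respiratory chain and ATP synthase genes, 8 were kept (8.79%), 3 gained (3.30%) and 14 lost (15.4%). Apart from the gained share of ribosomal protein genes, each of these shares exceeds that of all genes given above.

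**Figure D3:**
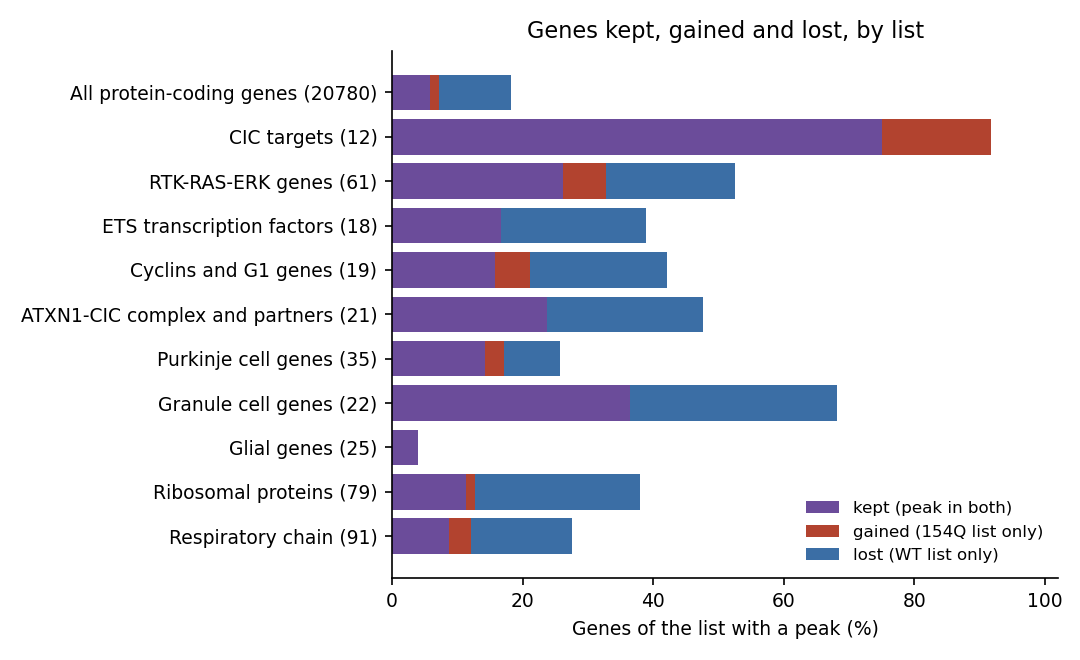
Percentage of the genes of each list, and of all protein-coding genes, with a peak in both lists (purple), in 154Q alone (red) and in WT alone (blue), the number of genes being in brackets. CIC targets are mostly kept with none lost, and all other lists with over 1 gene bound have a lost share at least as large as their gained share.

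The highest-ranked gained peaks were assigned to the nearest protein-coding start. The first of them, at the promoter of Mettl14, a subunit of the RNA methyltransferase complex (rank 16, −log10 q 119), is not a site without WT signal. It overlapped a WT peak of −log10 q 6.81 that had 60.0% repeat bases and was removed. The second lay between genes, 149762 bp from the start of Cartpt, a neuropeptide gene (rank 38, −log10 q 61.8), with its nearest WT peak 236847 bp away. The third lay 1058 bp from the start of Id1, an inhibitor of bHLH factors (rank 40, −log10 q 58.9), with no octamer. A peak in an intron of Cntnap2, which encodes the neuronal adhesion protein CASPR2 (rank 45, −log10 q 51.0), and a peak 6180 bp from the start of Hpdl (rank 49, −log10 q 46.5) both had the octamer within 8 bp of the summit. The remaining ones among the first 10, with ranks from 52 to 97 and −log10 q from 24.6 to 42.7, were nearest Lrpap1, Evl, Bcl2, Nf1 and Triqk, the site nearest Evl being in an intron of Eml1. At Bcl2, the gene of an inhibitor of apoptosis, a WT peak lay 15 bp from the 154Q peak, so this site was unshared by position alone. The others lay at least 17903 bp from a WT peak.

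Of the 10 highest-ranked lost peaks 8 were at promoters, against 3 of the 10 gained ones. The first lay in an intron of Ptch1, the Hedgehog receptor gene, at chr13:63548453-63548988 (rank 34, −log10 q 62.1, fold enrichment 11.9). The nearest 154Q peak, 18945 bp away, was a kept peak at the Ptch1 promoter (WT rank 381, 154Q rank 237). The second was the promoter of Uqcrq, a subunit of respiratory complex III, at chr11:53430847-53431288 (rank 42, −log10 q 54.2, fold enrichment 6.30). The promoter of Rab5b, an endosomal GTPase gene, followed at chr10:128696325-128696596 (rank 76, −log10 q 38.1, fold enrichment 2.28), then that of Ulk1, the autophagy kinase (rank 86, −log10 q 35.7, fold enrichment 6.85). The other 6 were nearest Smim15 (154245 bp from its start), Ablim1, Jun, Dad1, Clp1 and Wdr81, with ranks from 93 to 115, −log10 q from 30.6 to 34.2 and fold enrichment from 3.77 to 7.55. Jun, the AP-1 subunit gene, had the lowest of these fold enrichments and Clp1, an RNA processing gene, the highest. At Dad1 a 154Q summit lay 118 bp outside the WT peak and at Wdr81 559 bp outside. None of these 10 peaks had an octamer within 50 bp of its summit, whereas 4 of the 10 gained ones did.

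Across all members, an octamer within 50 bp of the summit was found at 76 of 1015 (7.49%, 6.02 to 9.27) kept peaks, 35 of 645 (5.43%, 3.93 to 7.45) gained peaks and 46 of 3364 (1.37%, 1.03 to 1.82) lost peaks. Windows of the same 101 bp placed 500 bp downstream held one at 1.18% (0.678 to 2.06), 2.02% (1.18 to 3.42) and 1.19% (0.874 to 1.62), and windows at 39515 annotated protein-coding starts at 0.896% (0.808 to 0.994). The share of lost peaks was thus close to that of their flanks. Gained peaks exceeded lost peaks by 4.06 percentage points (2.49 to 6.11) and kept peaks exceeded lost peaks by 6.12 percentage points (4.59 to 7.94). These shares use the 154Q summit of kept and gained peaks and the WT summit of lost peaks. At their WT summits, 59 of 1000 (5.90%, 4.60 to 7.54) kept peaks had an octamer, which exceeds the lost peaks by 4.53 percentage points (3.16 to 6.20) and the gained peaks by 0.474 percentage points (-1.93 to 2.69). The order of kept and gained peaks was less settled. With q below 0.001 in both lists, the share of gained peaks was 11.8% and that of kept peaks 9.06%. At the authors' threshold the interval for kept minus gained, 2.06 percentage points (-0.439 to 4.39), includes 0. Within each of the 5 rank groups of the 154Q list, the share was higher in gained than in kept peaks. It was 36.4% of 11 gained and 32.6% of 89 kept peaks in the first 100 ranks, 25% of 20 gained and 11.7% of 180 kept peaks at ranks 101 to 300, 15.4% of 52 gained and 5.24% of 248 kept peaks at ranks 301 to 600, 5.42% of 166 gained and 3.85% of 234 kept peaks at ranks 601 to 1000 and 2.27% of 396 gained and 1.52% of 264 kept peaks beyond, with few gained peaks in the first groups. The contrast of gained with lost peaks was larger at high rank. Of the 31 gained peaks in the first 300 ranks of the 154Q list, 9 had an octamer (29.0%, 16.1 to 46.6), against 0 of the 48 lost peaks in the first 300 ranks of the WT list, which allows a share of up to 6.25% by 3 counts and 7.41% by the Wilson interval. In the WT list, 14 of 93 kept peaks (15.1%) in the first 100 ranks had an octamer. At ranks 101 to 300, 5 of 159 (3.14%) did. Both shares lie below those of kept 154Q peaks at the same ranks, so the contrast of gained with lost peaks also spans a difference between the lists. Where present, the octamer lay a median of 9.50 bp from the summit in gained, 22 bp in kept and 27 bp in lost peaks. TGAATGAA was the commonest form in each class, at 23 gained, 45 kept and 18 lost peaks.

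The 9 gained peaks with an octamer in the first 300 ranks included those nearest Cartpt, Cntnap2, Hpdl, Bcl2, Ccnd1, Foxe1, Pou3f3 and Spred3. Those nearest Foxe1 (rank 186, −log10 q 14.8) and Pou3f3 (rank 264, −log10 q 10.9) lay 36233 and 96543 bp from these genes, so the assignment is by distance alone. Of the same 31 peaks, those without an octamer included promoters of Alk, a receptor tyrosine kinase gene (rank 120, −log10 q 20.5), Fosl1, Ercc6, a DNA repair gene (rank 234, −log10 q 12.0), Atxn2l, which encodes an ataxin-2 relative (rank 275, −log10 q 10.5), and Socs5, an inhibitor of cytokine signalling (rank 202, −log10 q 14.0). The Socs5 peak had a WT peak 154 bp away, and the Alk peak had its nearest 231430 bp away.

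A comparison that did not use the octamer list gave the same sequence. Over the 8-mers present in either class and counted with their reverse complements, TGAATGAA had the largest excess in gained over lost peaks, at 23 of 645 (3.57%) against 18 of 3364 (0.535%), and ATGAATGG and ATGAATGA, which overlap it, came next. In the other direction CCCCGCCC stood out, a GC-box sequence present at 37 of 645 gained peaks (5.74%) and 272 of 3364 lost peaks (8.09%). These are the extremes of 32176 8-mers and carry no test.

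The classes also differed in location. A summit within 1 kb of an annotated start, called a promoter here, was found at 69.7% (66.8 to 72.4) of kept peaks, 50.5% (46.7 to 54.4) of gained peaks and 55.1% (53.4 to 56.8) of lost peaks. Introns held 18.6% (16.3 to 21.1), 31.5% (28.0 to 35.2) and 29.5% (28.0 to 31.1), and intergenic sequence 10.9% (9.16 to 13.0), 13.3% (10.9 to 16.2) and 12.4% (11.4 to 13.6). Kept peaks were at promoters more often than gained peaks by 19.1 percentage points (14.3 to 23.8) and more often than lost peaks by 14.6 percentage points (11.2 to 17.8). Gained and lost peaks differed in promoter share by -4.54 percentage points (-8.74 to -0.343), gained being lower. The median GC content of the window was 58.4% at kept peaks and 55.4% at both gained and lost peaks. A median of 217 bp separated a kept summit from the nearest protein-coding start, 1580 bp a gained one and 904.5 bp a lost one.

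Rank moves were measured among the kept peaks alone, as the place in the WT order minus the place in the 154Q order, so that a positive move is a rise in 154Q. Of 142 kept peaks in the first 100 of either list, 69 rose, 71 fell and 2 held their place, and 44 were in the first 100 of both. Among these 142, the largest rise was at the promoter of Triobp, which encodes an actin-binding protein, with −log10 q 3.27 in WT and 36.9 in 154Q, ranks 2483 and 63. Next was another annotated start region, 94794 bp from the start of Rtl1, an imprinted gene. It had −log10 q 2.68 in WT and 24.4 in 154Q, ranks 2824 and 98. An intron of Elfn1, a synaptic adhesion gene, had −log10 q 3.93 in WT and 41.2 in 154Q, ranks 2164 and 57. Both sites had an octamer. A site 171822 bp from Tph2 (−log10 q 4.35 in WT and 47.3 in 154Q, ranks 1950 and 47) and the promoter of Rab3c, a synaptic vesicle GTPase gene (−log10 q 4.23 in WT and 32.7 in 154Q, ranks 2005 and 76), followed. Vgf, a neuropeptide precursor gene induced by neurotrophins, had −log10 q 5.09 in WT and 83.3 in 154Q, ranks 1715 and 24. Shc4 and Shc3, which encode related adaptors of receptor tyrosine kinases, both rose. Shc4 had −log10 q 5.86 in WT and 58.1 in 154Q, ranks 1501 and 42 and Shc3 −log10 q 6.98 in WT and 72.7 in 154Q, ranks 1228 and 32. Introns of Arrb1, encoding a beta-arrestin, and of Sema4d, encoding a semaphorin, complete the 10 largest rises of the 142, with 154Q ranks of 77 and 61 and WT ranks of 1659 and 1140.

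The 10 largest falls of the 142 were all at promoters and none had an octamer. Of these, 2 were second 154Q peaks beneath a broad WT peak whose summit carried a stronger 154Q peak. At Slc27a1, a fatty acid transporter gene, the second peak had −log10 q 66.7 in WT and 1.40 in 154Q, ranks 27 and 1633, whereas the 154Q peak 34 bp from the WT summit had −log10 q 20.6 (rank 119). At Zfp78, a zinc finger gene, it had −log10 q 46.2 in WT and 3.07 in 154Q, ranks 55 and 968, whereas the 154Q peak 1 bp from the WT summit had −log10 q 13.1 (rank 218). Ung, the uracil DNA glycosylase gene, had −log10 q 33.1 in WT and 1.86 in 154Q, ranks 98 and 1324. The promoter of Arhgap35, which encodes a GTPase-activating protein, had −log10 q 36.5 in WT and 4.08 in 154Q, ranks 84 and 776. The others, Dnaaf5, Ssc4d, Evi5l, Birc6, Rrp9 and Frat1, had −log10 q from 32.6 to 46.6 in WT and from 3.19 to 6.06 in 154Q. These sites were in the first 100 of the WT list, and in 154Q they ranged from rank 525 to rank 1633 of 1660. Of the 10 largest rises, 5 were at promoters and 3 had an octamer. In all, 21 kept peaks lay beneath a WT peak that a higher-ranked 154Q peak also overlapped, and at none of them was the −log10 q higher in 154Q.

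**Figure D4:**
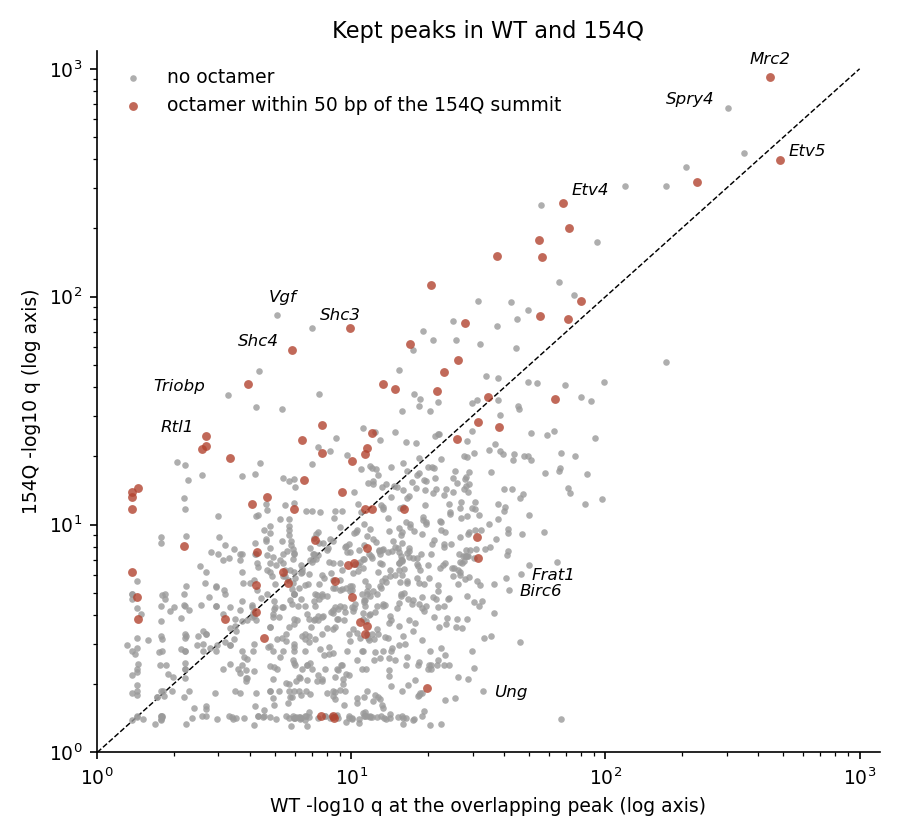
The −log10 q of each of the 1015 kept peaks in WT and in 154Q (log axes), with peaks that have an octamer in red and the line of equal values dashed. Most grey points lie below the line, and 52 of the 76 red points lie above it.

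The octamer went with the direction of the move over the whole set. Among kept peaks with an octamer, 60 of 76 (78.9%, 68.5 to 86.6) rose in rank, against 445 of 939 (47.4%, 44.2 to 50.6) without one. By −log10 q, which also depends on depth, 52 of 76 (68.4%, 57.3 to 77.8) were higher in 154Q than in WT, against 258 of 939 (27.5%, 24.7 to 30.4) without one. With the octamer sought at the WT summit instead, the counts were 39 of 61 (63.9%, 51.4 to 74.8) and 271 of 954 (28.4%, 25.6 to 31.4). The median −log10 q was 17.4 in 154Q and 10.1 in WT at peaks with an octamer, and 4.97 and 10.1 at the others. With kept peaks divided into 4 groups of nearly equal size by rank move, an octamer was present at 40 of 253 (15.8%, 11.8 to 20.8) of the largest rises, 20 of 252 (7.94%, 5.20 to 11.9) of the smaller rises, 9 of 256 (3.52%, 1.86 to 6.55) of the smaller falls and 7 of 254 (2.76%, 1.34 to 5.58) of the largest falls. The first and last of these differed by 13.1 percentage points (8.18 to 18.3), while the shares in the flanks ranged from 0.794% to 1.57%. The promoter share ran in the opposite direction, from 56.5% in the largest rises to 79.9% in the largest falls, and the median GC content from 55.4% to 60.4%. Within promoters, the octamer shares of the largest rises and largest falls were 11 of 143 (7.69%, 4.35 to 13.2) and 5 of 203 (2.46%, 1.06 to 5.64). Their intervals overlap, which does not measure the difference between the shares, and no interval for that difference was computed. Outside promoters the shares were 29 of 110 (26.4%, 19.03 to 35.3) and 2 of 51 (3.92%, 1.08 to 13.2). Counted by direction of −log10 q alone, 154Q had the higher value at 21 of 34 (61.8%, 45.0 to 76.1) promoter peaks with an octamer and 163 of 673 (24.2%, 21.1 to 27.6) without, and at 31 of 42 (73.8%, 58.9 to 84.7) other peaks with an octamer and 95 of 266 (35.7%, 30.2 to 41.6) without. In rank, 22 of 34 (64.7%, 47.9 to 78.5) promoter peaks with an octamer rose, and 284 of 673 (42.2%, 38.5 to 46.0) without. Of other peaks, 38 of 42 (90.5%, 77.9 to 96.2) with an octamer rose, and 161 of 266 (60.5%, 54.5 to 66.2) without. The part of promoter location and of the strength of a site in these differences was not tested beyond this division.

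Some of the 40 kept peaks that had an octamer and belonged to the largest rises are named here. The highest in 154Q was the promoter of Ube2n, which encodes a ubiquitin-conjugating enzyme, with −log10 q 20.6 in WT and 113 in 154Q, ranks 254 and 18. The promoter of Kcnb2, a voltage-gated potassium channel gene, followed with −log10 q 9.88 in WT and 72.7 in 154Q, ranks 800 and 31. An intron of Maml3, a coactivator of Notch, had −log10 q 12.1 in WT and 25.3 in 154Q, ranks 595 and 92, and the promoter of Ubash3b, a phosphatase acting on tyrosine kinase signalling, −log10 q 2.59 in WT and 21.4 in 154Q, ranks 2972 and 113. A site in an intron of Nrg1, which encodes the ERBB ligand neuregulin-1, rose from near the end of the WT list, with −log10 q 1.37 in WT and 11.6 in 154Q, ranks 4273 and 248. The promoters of Ptpn9, a tyrosine phosphatase gene (−log10 q 7.63 in WT and 20.5 in 154Q, ranks 1121 and 121), and Cpeb2, a translational regulator (−log10 q 3.33 in WT and 19.6 in 154Q, ranks 2464 and 133), rose as well. These genes were chosen for naming after their values were seen.

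Among all 8-mers, TGAATGAA again had the largest excess in the largest rises over the largest falls, at 25 of 253 (9.88%) against 4 of 254 (1.57%). The largest deficit was that of AGGGCGGG, at 8 of 253 (3.16%) against 21 of 254 (8.27%).

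**Figure D5:**
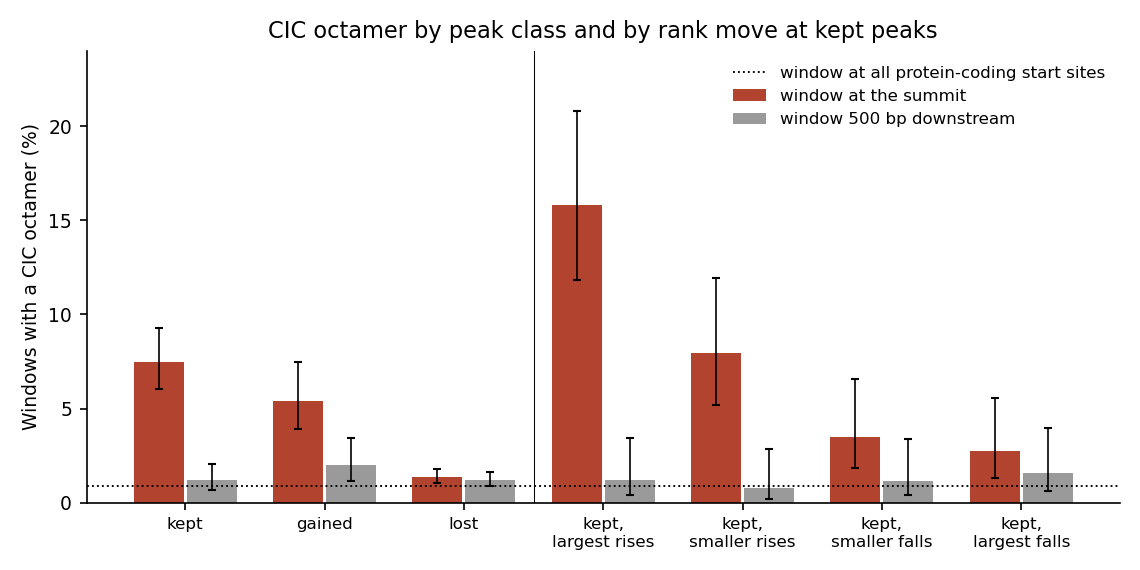
Percentage of 101-bp windows with an octamer at the summit (red) and 500 bp downstream (grey), for kept, gained and lost peaks and for kept peaks divided into 4 groups by rank move. Bars are 95% Wilson intervals over peaks and the dotted line is the 0.896% of all protein-coding starts, and the share falls from 15.8% in the largest rises to 2.76% in the largest falls.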

How the data were processed

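CUT&RUN for CIC was analysed in WT, 154Q and CIC KO mice (n = 4 each). The authors trimmed reads (Trimmomatic 0.36), aligned them to mm10 (Bowtie2 2.3.4.1), kept fragments under 120 bp, removed blacklisted regions, merged the libraries of a genotype and called peaks with MACS3 at q 0.05 against merged CIC KO. The study also scaled each library to an E. coli spike-in, and reports that CIC signal at the peaks called in 154Q was highest in that genotype. That scaled signal was not used here. Tool versions are those of the submitters' processing notes. The deposited WT list gives intervals, summit offsets, fold enrichment (a ratio), −log10 p and −log10 q. The 154Q list as deposited holds summit positions of 1 bp with their −log10 q, and no boundaries or fold enrichment. Per the methods of the study, peaks over 50% repeats were omitted. The 154Q list is marked as repeat-masked and the WT list is not, and 131 WT peaks were over 50%. Without boundaries the filter could not be checked in the 154Q list.

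Here lines were collapsed by peak number, the summit of highest −log10 q standing for a peak, and WT peaks with over 50% soft-masked bases in the RefSeq GRCm38 sequence were removed, which approximates the authors' filter. A 154Q peak spans its summits. Genes and start sites come from GENCODE M21 basic. Values were taken as deposited, and 0 columns of per-sample values were left out, since none exist in these lists. Depth per library is not given by the lists, so each value rests on merged fragments whose number was not used here and merging can weight animals unequally. Intervals were computed with statsmodels 0.14.6 in Python 3.11.15.

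Named genes are those nearest the 10 highest-ranked gained, lost and kept peaks, the 10 largest rises and falls among kept peaks in the first 100 of either list, 12 CIC targets and the members of 7 further gene lists, for which counts are given, beside counts for 2 groups taken by symbol. The comparison, the members and the lists were chosen with earlier results of these data known. The sharing and octamer steps were tested on simulated lists. Alternatives were other repeat, q, boundary, sharing, list length, gene, octamer and promoter settings. Chromosomes X and Y, the H3K27ac and IgG libraries and the contact mutant list were not used here. Some genes that the naming rule or lists include are not reported here by name.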

Additional observations from a re-analysis of the deposited data

How the results depend on the processing

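No paired analysis was possible because the lists analysed hold the merged animals of each genotype, and for the same reason no animal could be left out in turn. Of 79 recomputed values over 12 settings, 50 stayed within the interval of the reported share or within 1.5 times the reported count, and 29 did not. The gained and lost shares of peaks were 31.2% and 74.9% with q below 0.001 in both lists, 35.1% and 75.8% with 154Q peaks extended by 100 bp, 54.2% and 55.4% with lists of equal length, and 30.4% and 73.0% when a gap of up to 500 bp counted as sharing. The gained genes numbered 174 at q below 0.001 and 618 with lists of equal length, the lost genes 759 with lists of equal length, and the kept genes 789 at q below 0.001 and 778 when only the nearest start within 5 kb was counted. The octamer shares of kept, gained and lost peaks were 3.74%, 3.72% and 0.505% within 25 bp and 10.3%, 8.68% and 2.73% within 100 bp. That of gained peaks was 11.8% at q below 0.001, and that of lost peaks 0.978% with lists of equal length. Gained exceeded lost peaks in 8 of 8 settings, and kept exceeded gained peaks in 7 of 8, the exception being q below 0.001, where kept peaks had 9.06%. The promoter shares of kept, gained and lost peaks were 65.3%, 41.7% and 47.9% within 500 bp and 73.8%, 56.6% and 61.2% within 2 kb, and that of lost peaks was 60.8% at q below 0.001 and 63.6% with lists of equal length. The octamer difference between the largest rises and largest falls, with alternatives chosen after seeing the data, kept its sign in all 9, and was 12.9 percentage points with 1 154Q peak per WT peak and 8.70 with the octamer sought at the WT summit, against the 13.1 reported. Fewer peaks enter under a stricter q or equal length by construction, and no other cause was tested. The lists give no depth, and a site under the threshold in either list is not shown to be unbound in that genotype.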
